A study of Mus musculus with 2 samples.

Results

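The subunit genes of the AMPA and NMDA receptors were examined in single nuclei of mouse brain taken 12 h after subarachnoid haemorrhage (SAH) and in nuclei of normal brain. The members were the 10 genes of the count tables with the symbols Gria1, Gria2, Gria3, Gria4, Grin1, Grin2a, Grin2b, Grin2c, Grin2d and Grin3a, out of 32285 genes. They were picked by symbol, with earlier results of these data known. The comparison addresses how the transcripts of these receptors stood in each type of neuron, and in oligodendrocyte precursors, after the bleed.

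The series held 2 libraries, 1 per condition. Each was made from the pooled ipsilateral tissue of 3 male mice of 6 to 8 weeks, cut between the level of the medial prefrontal cortex and that of the centrolateral thalamic nucleus. That age is the labels'; the study's methods, which name the strain as C57BL/6J, give a somewhat older range. SAH was induced by endovascular perforation. The labels call the control mice normal and the study describes sham-operated controls, so whether the control mice were operated on is not settled, and the control library is called Normal here. With 1 library per condition there is no replicate, and no test was made. Every interval given is a 95% interval of counting error alone and covers neither the mice nor the library preparation.

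Glutamate acts on neurons largely through these receptors. AMPA receptors are tetramers of GluA subunits, encoded by Gria1 to Gria4, and carry the fast excitatory current. A receptor that holds GluA2, in the edited form made in adult brain, passes little calcium. NMDA receptors need the obligatory GluN1 subunit, encoded by Grin1, with GluN2 subunits encoded by Grin2a to Grin2d that set the kinetics and the magnesium block. Grin3a encodes GluN3A, which lowers calcium entry. In forebrain development Grin2a increases relative to Grin2b, and oligodendrocyte precursors are a glial type that receives glutamatergic input through AMPA receptors.

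The Normal library held 12204 nuclei and the SAH library 18209, with medians of 7252.5 and 8151 unique molecular identifiers (UMIs) per nucleus. After filtering, 10955 and 15536 nuclei were kept, and 78 barcode sequences occurred in both libraries. Nuclei were clustered without the member genes and clusters were named from marker lists. This gave 14 named classes of neurons, 2 residual classes (other telencephalic glutamatergic and other GABAergic) and the oligodendrocyte precursor-like nuclei. A class with the ending “-like” carries the markers of the type named, and 2 subcortical classes are named after their transmitter markers, Slc17a6 or the GABA genes. Neuron clusters held nuclei of both libraries, while several glial clusters were split by library. The microglia-like class joined a cluster of 959 Normal and 46 SAH nuclei with one of 23 and 1063. The oligodendrocyte-like class was split likewise, with 1305 and 8 nuclei in one cluster and 6 and 778 in another. A further 58 Normal and 1909 SAH nuclei of glial clusters were left unnamed. Among them was a cluster of 3 and 529 nuclei that was high in all 7 oligodendrocyte markers. Its name was withheld by a rule on depth and leading genes. The values of these glial classes thus compare largely different clusters. The neuron classes ranged from 68 layer 5 near-projecting-like nuclei in Normal to 2410 other telencephalic glutamatergic nuclei in SAH.

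Levels are given as CPM, the UMIs of a gene scaled to 1000000 UMIs of the class in that library. Across all kept nuclei the members took 813135 UMIs in Normal and 1160911 in SAH. Counts of the matrix included intronic reads, and long genes collect more of them, so CPM of different genes are not set against each other, except per kilobase of gene where stated. Counting was by 3′ tag and unspliced transcripts weigh heavily in nuclei, so the levels are not those of protein or of mature mRNA.

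**Figure D1:**
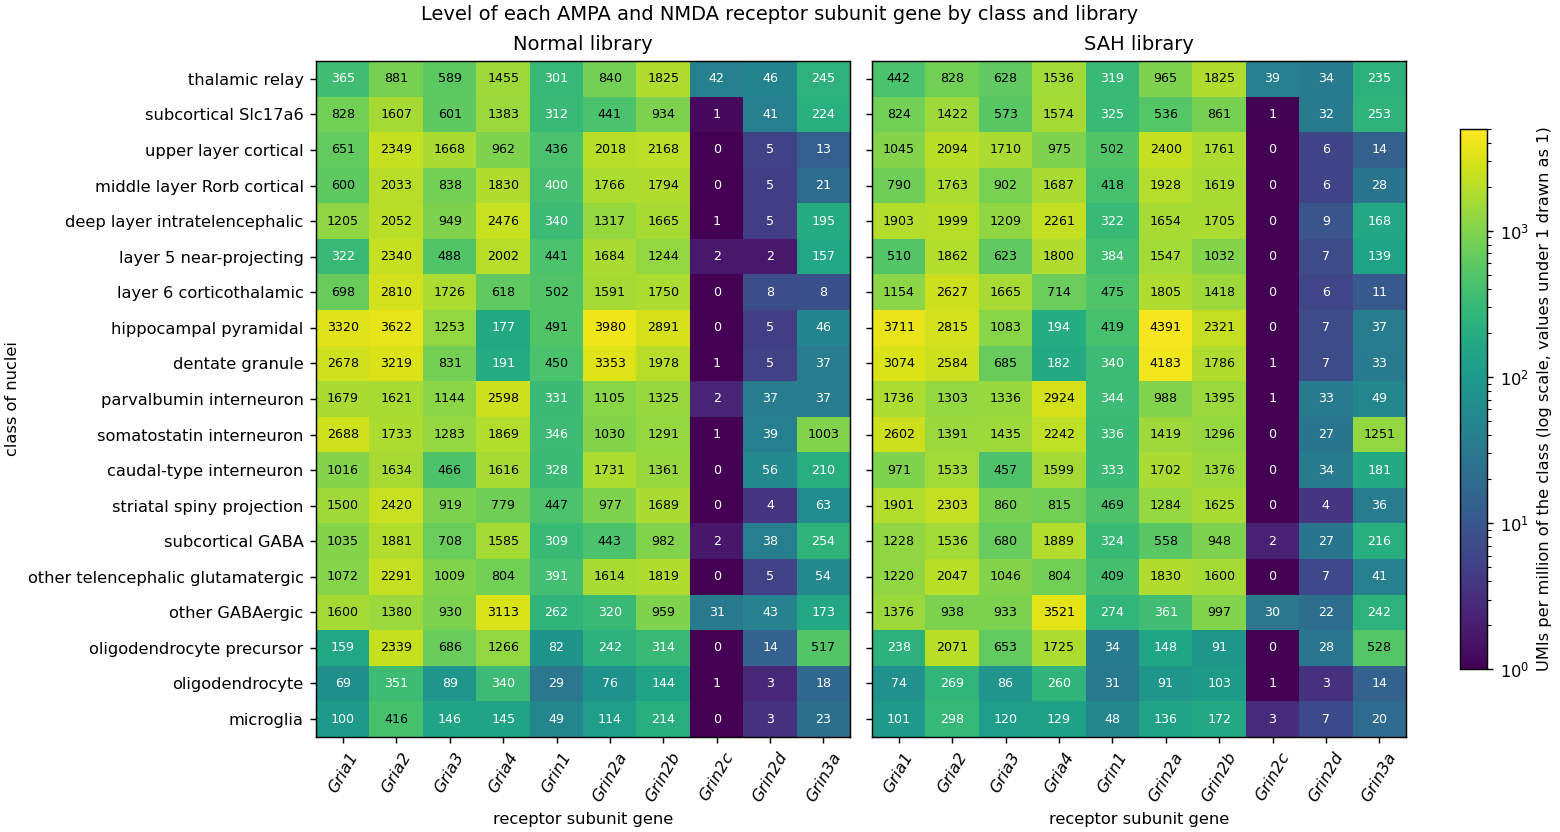
Level of each member in each class, in CPM on a log colour scale, for the Normal library (left) and the SAH library (right), with the value printed in each cell. Gria4 was lowest among the neuron classes in both hippocampal classes, Grin2c was above 20 only in thalamic relay-like and other GABAergic nuclei, and Grin3a was highest in somatostatin interneuron-like nuclei in both libraries.

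Among the 160 pairs of a member and a neuron class, 138 had at least 100 UMIs over both libraries and were compared. The remaining 22 were Grin2c in 15 classes and Grin2d in 7. Of the 138 values, 2 were lower in SAH by at least 1.5-fold and 4 were higher, or 1.45% and 2.9%. Over all genes of the same classes, 15.6% of 125110 values were lower by that much and 7.53% were higher. The low share must be read with depth and gene length, since the members are well counted and most are long. The shares of all genes cover genes of every length. Of the 138 values, 69 were below 0 as counted, with a median log2 ratio of 0.002. Relative to the median of 500 genes of similar length, 79 were below 0, with a median of −0.065. Among values of at least 1000 UMIs, a limit chosen after the data were seen, 0 of 111 member values were lower and 3 were higher, beside 6.05% and 4.89% of all genes. The 4 higher values were all Gria1, in classes named after cortical layers. The 2 lower ones were Grin2d in caudal-type interneuron-like and Grin3a in striatal spiny projection-like nuclei. No value reached 2-fold in the classes as drawn, but Grin3a passed it under some other settings, as given with that gene.

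Set against the genes of each class, the members were past 1.5-fold in few classes. In thalamic relay-like nuclei 0 of 10 members were past it, while 13% of genes were lower and 8.26% higher. In subcortical Slc17a6 nuclei 0 of 9 were, beside 15.5% and 5.81% of genes, and in subcortical GABA nuclei 0 of 9, beside 18% and 6.92%. Among classes named after cortical layers, 1 of 9 members was higher in the upper layer class (18.8% of genes lower, 10.9% higher). In the middle layer Rorb class 0 of 9 were past it (15.6% and 9.25%). In the deep layer class (15.1% and 6.5%), the near-projecting class (9.22% and 7.81%) and the layer 6 class (15.6% and 7.42%), 1 of 8 members was higher. In both hippocampal classes 0 of 8 were past it, beside 15.1% and 7.4% of genes in pyramidal-like and 12.6% and 8.4% in dentate granule-like nuclei. Of the interneuron classes, parvalbumin (17.2% and 5.14%) and somatostatin (15.8% and 5.29%) had 0 of 9, and caudal-type (13.7% and 4.64%) had 1 of 9 lower. The striatal class had 1 of 8 lower (13.6% and 5.95%). The residual telencephalic class had 0 of 9 (18.3% and 10.3%), and the residual GABAergic class 0 of 8 (8.81% and 4.64%).

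Gria1 encodes GluA1, the subunit most tied to activity-dependent insertion of receptors. The gene lies at chr11:57011387-57330244 on the plus strand of GRCm38 and spans 319 kb. In Normal its level was highest in hippocampal pyramidal-like nuclei at 3320 CPM, followed by somatostatin interneuron-like nuclei at 2688 and dentate granule-like nuclei at 2678, whose intervals overlapped. It was lowest in layer 5 near-projecting-like nuclei at 322 and thalamic relay-like nuclei at 365, which also overlapped. Its range across neuron classes was thus 10.3-fold.

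In SAH, Gria1 stood higher in the excitatory classes named after cortical layers, as these were drawn. In upper layer cortical-like nuclei it was 651 CPM in Normal and 1045 in SAH, a log2 ratio of 0.68 (0.63 to 0.73). In this class 10.9% of all genes were higher by at least 1.5-fold. Layer 6 corticothalamic-like nuclei held 698 and 1154, a log2 ratio of 0.72 (0.66 to 0.79), with 7.42% of genes that far up. Deep layer intratelencephalic-like nuclei held 1205 and 1903, a log2 ratio of 0.66 (0.58 to 0.74), with 6.5% of genes. In this class its own 6 markers summed to 731 CPM in Normal and 433 in SAH, below the 1020 and 1174 of the middle layer Rorb markers, and the upper layer markers to 741 and 418; the part of this in the value was not tested. Layer 5 near-projecting-like nuclei held 322 and 510, a log2 ratio of 0.66 (0.42 to 0.92) on 180 and 514 UMIs, with 7.81% of genes. The middle layer Rorb class fell short of 1.5-fold, at 600 and 790 CPM and a log2 ratio of 0.40 (0.35 to 0.45). Over the alternative settings this value ranged from −0.02 to 0.59, the upper end being just past 1.5-fold. The class held 522 and 903 nuclei as drawn, and 183 and 157 when nuclei were gated one by one.

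In the classes not named after a cortical layer, the Gria1 ratios were smaller. The residual telencephalic class held 1072 and 1220 CPM, and the residual GABAergic class 1600 and 1376, the lowest log2 ratio (−0.22). Some clusters of the residual telencephalic class scored best on a cortical layer list but missed the rules for a name. The contrast thus follows the names of the classes and is not one of cortex with other regions. Striatal spiny projection-like nuclei held 1500 and 1901 CPM, a log2 ratio of 0.34 (0.27 to 0.41), and thalamic relay-like nuclei 365 and 442, a log2 ratio of 0.28 (0.21 to 0.35). Hippocampal pyramidal-like nuclei held 3320 and 3711 (log2 ratio 0.16). Subcortical GABA nuclei held 1035 and 1228 (0.25, 0.21 to 0.28), a sum over unlike clusters. In the cluster led by Avp, with 638 and 442 nuclei, Gria1 was 1316 and 2021 CPM (0.62, 0.57 to 0.66), and in the one led by Ebf1, with 489 and 723 nuclei, 780 and 810. The values of other members in subcortical GABA nuclei are sums over the same clusters. The part of their differing mix in those values was not tested. Parvalbumin and somatostatin interneuron-like nuclei were near equal, at log2 ratios of 0.05 and −0.05. In all, 12 of 16 classes were above 0 and 4 below. When each ratio was taken relative to the median of 500 genes of similar length, 11 were above and 5 below, and the layer 6 value alone stayed past 1.5-fold, at 0.61.

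The calls were not equally firm. The layer 6 value stayed past 1.5-fold under all 8 alternative settings (0.61 to 0.88), and the upper layer value under 7. The deep layer value stayed past it under 4, and was 0.24 when nuclei were gated one by one and 0.19 with doublets kept. The near-projecting value reversed to −0.72 when nuclei were gated one by one, so its direction is not settled. Of 27 clusters with at least 100 Gria1 UMIs, 22 were above 0, 6 of them past 1.5-fold, and 5 were below, 2 of them past it.

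Gria2 encodes GluA2. It lies at chr3:80681450-80802835 on the minus strand (121 kb). In Normal it ranged from 881 CPM in thalamic relay-like to 3622 in hippocampal pyramidal-like nuclei, and in SAH from 828 to 2815 in the same classes. It was lower in SAH in 16 of 16 classes as counted, but in 15 of 16 when centred on genes of like length and in 11 of 16 when centred on the median of all genes, which was itself below 0 in every neuron class (−0.19 to −0.04). No class passed 1.5-fold.

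The largest Gria2 difference was in the residual GABAergic class, 1380 against 938 CPM, a log2 ratio of −0.56 (−0.66 to −0.45). Hippocampal pyramidal-like nuclei held 3622 and 2815, a log2 ratio of −0.36 (−0.41 to −0.32). In this class the 6 hippocampal pyramidal markers summed to 692 CPM in Normal and 386 in SAH, and the astrocyte markers to 63.4 and 120; the part of this in the Gria2, Grin1, Grin2b and Cnih2 values of the class was not tested. Dentate granule-like nuclei held 3219 and 2584 (−0.32). Parvalbumin and somatostatin interneuron-like nuclei both stood at −0.32, whereas deep layer intratelencephalic-like nuclei held 2052 and 1999 (−0.04). All 28 clusters compared were below 0. In oligodendrocyte-like nuclei Gria2 was 351 CPM in Normal and 269 in SAH, and in microglia-like nuclei 416 and 298. The transcript was therefore lower in SAH in these glial classes too, and the part of RNA shared between nuclei in the neuronal values was not tested.

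**Figure D2:**
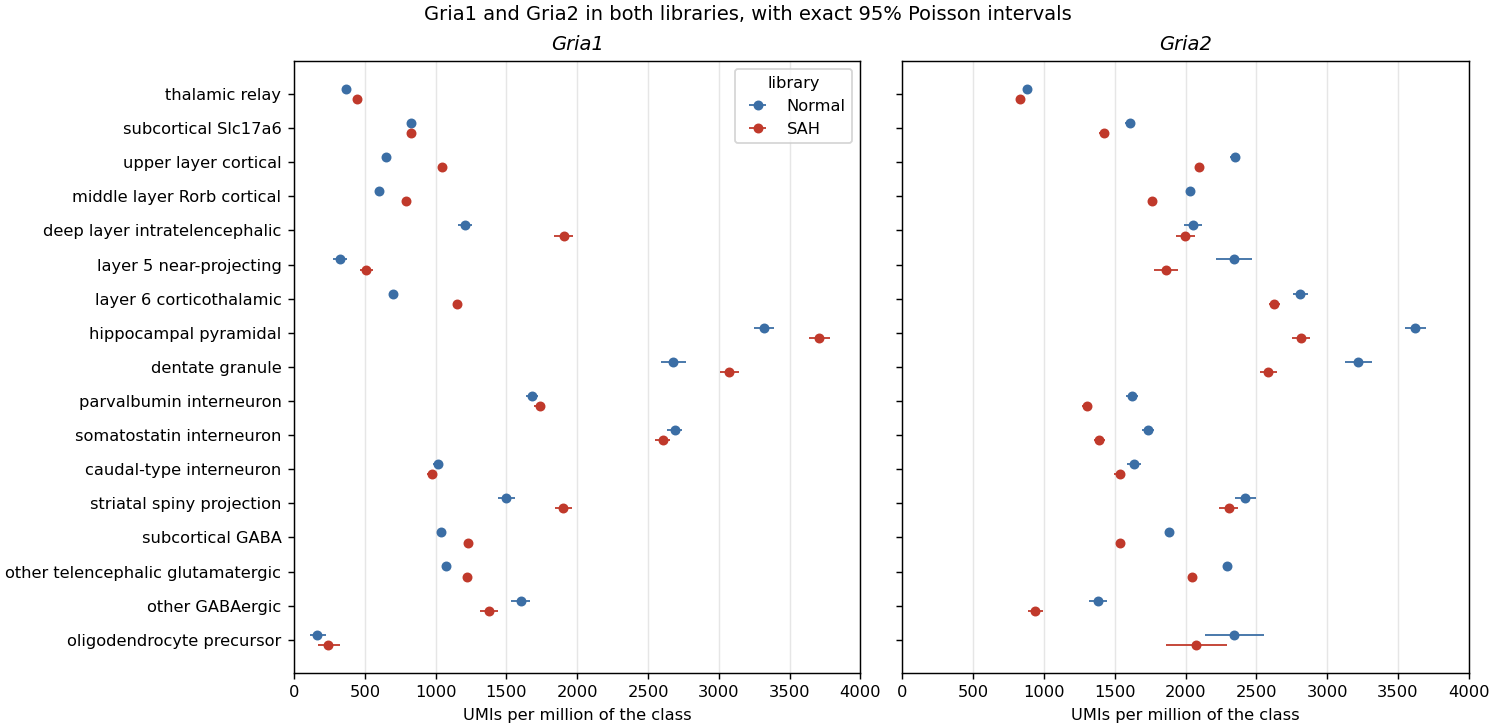
Gria1 (left) and Gria2 (right) in CPM of each class, Normal in blue and SAH in red, with exact 95% Poisson intervals that are narrower than the points for most classes. The SAH points of Gria1 lie to the right in the excitatory classes named after cortical layers. Those of Gria2 lie to the left in every class.

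The ratio of Gria1 to Gria2 UMIs does not depend on how libraries are scaled, but these genes differ in length (319 and 121 kb). Centring on genes of like length took the median log2 ratio of Gria1 from 0.22 to 0.10. It took that of Gria2 from −0.19 to −0.22. The part of gene length in the ratio was not tested. As the classes were drawn, the Gria1 to Gria2 ratio was higher in SAH in 16 of 16 neuron classes, with a median of 1.38-fold. The folds ran from 1.02 in caudal-type interneuron-like nuclei to 1.99 in layer 5 near-projecting-like nuclei. In upper layer cortical-like nuclei the ratio was 0.277 (0.268 to 0.286) in Normal and 0.499 (0.489 to 0.509) in SAH. In hippocampal pyramidal-like nuclei it was 0.916 and 1.32. The same ratio was 0.197 and 0.274 in oligodendrocyte-like nuclei and 0.241 and 0.338 in microglia-like nuclei. It was thus higher in SAH there too, by 1.39-fold in the former. Both glial classes drew largely on different clusters in each library, and the part of this in their folds was not tested. The median fold of the neurons lay beside that of these glia, and the larger folds were those of the classes named after cortical layers. Gria4 per Gria2 and Gria3 per Gria2 were also higher in SAH, each in 15 of 16 neuron classes, with medians of 1.16-fold and 1.15-fold. The direction was thus shared by the other AMPA subunits over Gria2. Grin2d per Grin2b and Grin3a per Grin1 were each higher in 8 of 16 classes. The Gria1 to Gria2 ratio was chosen after the data were seen, and it was not recomputed under the alternative settings. In layer 5 near-projecting-like nuclei the log2 ratio of Gria1 was −0.72 when nuclei were gated one by one. That of Gria2 in this class ranged from −0.41 to −0.29 over the settings. The direction of the Gria1 to Gria2 ratio in this class is thus not settled.

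Gria3 encodes GluA3, at chrX:41400854-41678601 on the plus strand (278 kb). Its level was highest in layer 6 corticothalamic-like nuclei at 1726 CPM in Normal and in upper layer cortical-like nuclei at 1710 in SAH. It was lowest in caudal-type interneuron-like nuclei, at 466 and 457. Between libraries 9 classes were above 0 and 7 below, and none passed 1.5-fold. The direction depended on the centring, with 5 above and 11 below relative to genes of like length, and 14 above and 2 below relative to the median of all genes. The extremes were layer 5 near-projecting-like nuclei, with 488 and 623 CPM (log2 ratio 0.35, 0.14 to 0.56), and dentate granule-like nuclei, with 831 and 685 (−0.28, −0.39 to −0.17). Deep layer intratelencephalic-like nuclei held 949 and 1209 (0.35, 0.26 to 0.44).

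Gria4 encodes GluA4, the fast subunit prominent in parvalbumin interneurons, thalamus and brainstem. It lies at chr9:4417896-4796234 on the minus strand (378 kb). Among the named neuron classes it was highest in parvalbumin interneuron-like nuclei at 2598 CPM in Normal and 2924 in SAH. The residual GABAergic class exceeded these with 3113 and 3521. It was lowest in the hippocampal pyramidal-like nuclei, at 177 and 194, and in dentate granule-like nuclei, at 191 and 182. Its span across classes of 17.6-fold in Normal was the widest of the AMPA subunits.

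Between libraries Gria4 differed little in the classes as drawn. Subcortical GABA nuclei held 1585 and 1889 CPM, a log2 ratio of 0.25 (0.22 to 0.28), and somatostatin interneuron-like nuclei 1869 and 2242, a log2 ratio of 0.26 (0.22 to 0.31). Middle layer Rorb cortical-like nuclei were slightly lower in SAH, at 1830 and 1687. In 10 classes the ratio was above 0 and in 6 below. With centring on genes of like length these became 6 and 10. The value of hippocampal pyramidal-like nuclei ranged from −0.03 to 0.75 over the alternative settings. Its upper end, past 1.5-fold, came with nuclei gated one by one, on 157 and 59 nuclei.

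Divided by gene length, Gria2 took the largest share of the AMPA subunits in 16 of the 16 neuron classes in Normal, from 40.7% in the residual GABAergic class to 70.5% in layer 5 near-projecting-like nuclei. In thalamic relay-like nuclei the shares in Normal were 50.5% Gria2, 26.8% Gria4, 14.8% Gria3 and 7.96% Gria1. In hippocampal pyramidal-like nuclei they were 66% Gria2, 23% Gria1, 9.98% Gria3 and 1.03% Gria4. In SAH the leading subunit was the same in all classes but the residual GABAergic one, where Gria4 took 37.7% and Gria2 31.3%. The length correction is rough, because exonic and intronic reads are counted together.

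Grin1 encodes the obligatory GluN1 subunit. It lies at chr2:25291181-25319187 on the minus strand and spans 28 kb, and the antisense gene Grin1os overlaps it on the other strand. Its level was the most even of the 10 members, from 262 CPM in the residual GABAergic class to 502 in layer 6 corticothalamic-like nuclei in Normal, or 1.92-fold. Of 15 neighbouring pairs of classes in that order, 13 had overlapping intervals. In SAH the range was 274 to 502.

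The largest Grin1 difference was in dentate granule-like nuclei, with 450 and 340 CPM, a log2 ratio of −0.41 (−0.55 to −0.25). Hippocampal pyramidal-like nuclei held 491 and 419 (−0.23, −0.34 to −0.11). Upper layer cortical-like nuclei held 436 and 502 (0.20, 0.14 to 0.26). In 10 classes the ratio was above 0 and in 6 below. Centred on genes of like length it was above 0 in 14.

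Grin2a encodes GluN2A, at chr16:9567898-9995560 on the minus strand (428 kb), and Grin2b encodes GluN2B, at chr6:135713233-136173511 on the minus strand (460 kb). Both were highest in hippocampal pyramidal-like nuclei, Grin2a at 3980 CPM in Normal and 4391 in SAH, Grin2b at 2891 and 2321. Grin2a was lowest in the residual GABAergic class (320 and 361), and Grin2b in subcortical Slc17a6 nuclei (934 and 861). Grin2a spanned 12.4-fold across classes in Normal, while Grin2b lay between 934 and 2891 CPM.

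Grin2a was above 0 in 13 of 16 classes. The largest value was in somatostatin interneuron-like nuclei, 1030 and 1419 CPM, a log2 ratio of 0.46 (0.40 to 0.52). In that class the summed level of the 9 caudal-type markers was 389 CPM in Normal and 151 in SAH. Adarb2 alone took 245 and 55.6 of this, and the other 8 markers 144 and 95.1. The part of this in the value was not tested. Striatal spiny projection-like nuclei held 977 and 1284 CPM (0.39, 0.31 to 0.48), and dentate granule-like nuclei 3353 and 4183 (0.32, 0.27 to 0.37). Parvalbumin interneuron-like nuclei held 1105 and 988 (−0.16, −0.23 to −0.10). Centred on genes of like length, Grin2a was above 0 in 11 classes.

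Grin2b was below 0 in 11 of 16 classes. The values were −0.32 (−0.37 to −0.27) in hippocampal pyramidal-like, −0.30 (−0.33 to −0.27) in upper layer cortical-like and −0.30 (−0.35 to −0.26) in layer 6 corticothalamic-like nuclei. Upper layer nuclei held 2168 CPM in Normal and 1761 in SAH. In thalamic relay-like nuclei Grin2b was equal, at 1825 CPM in both libraries. Centred on genes of like length, Grin2b was below 0 in 16 classes, and centred on the median of all genes in 7. No value of either gene passed 1.5-fold in the classes as drawn and without centring. Grin2a passed it in caudal-type interneuron-like nuclei gated one by one (0.75). It also did so in somatostatin interneuron-like nuclei when centred on the median of all genes (0.62).

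The ratio of Grin2a to Grin2b UMIs was higher in SAH in 14 of 16 classes, with a median of 1.30-fold. In dentate granule-like nuclei it was 1.70 (1.62 to 1.78) in Normal and 2.34 (2.26 to 2.42) in SAH. In upper layer cortical-like nuclei it was 0.931 (0.910 to 0.952) and 1.36 (1.34 to 1.39), the largest fold at 1.46. In thalamic relay-like nuclei it was 0.460 (0.445 to 0.475) and 0.529 (0.517 to 0.541), and in subcortical GABA nuclei 0.451 and 0.589.

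As the classes were drawn, the exceptions were the parvalbumin and caudal-type interneuron classes. Somatostatin interneuron-like nuclei were higher in SAH, at 0.798 and 1.10. Parvalbumin interneuron-like nuclei stood at 0.834 (0.798 to 0.872) in Normal and 0.708 (0.681 to 0.736) in SAH. Caudal-type interneuron-like nuclei stood at 1.27 (1.22 to 1.33) and 1.24 (1.19 to 1.28), whose intervals overlapped. When nuclei were gated one by one, the log2 ratio of Grin2a in the caudal-type class was 0.75. The direction of the Grin2a to Grin2b ratio in that class is thus not settled. The Grin2a to Grin2b ratio was 0.528 and 0.880 in oligodendrocyte-like and 0.534 and 0.790 in microglia-like nuclei, folds of 1.67 and 1.48. Both glial classes drew largely on different clusters in each library, and the part of this in their folds was not tested. The Grin2a to Grin2b ratio thus moved the same way in glia with few UMIs of either gene, and the part of shared RNA was not tested. The fold of 0.848 in parvalbumin interneuron-like nuclei went the other way from these glia.

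**Figure D3:**
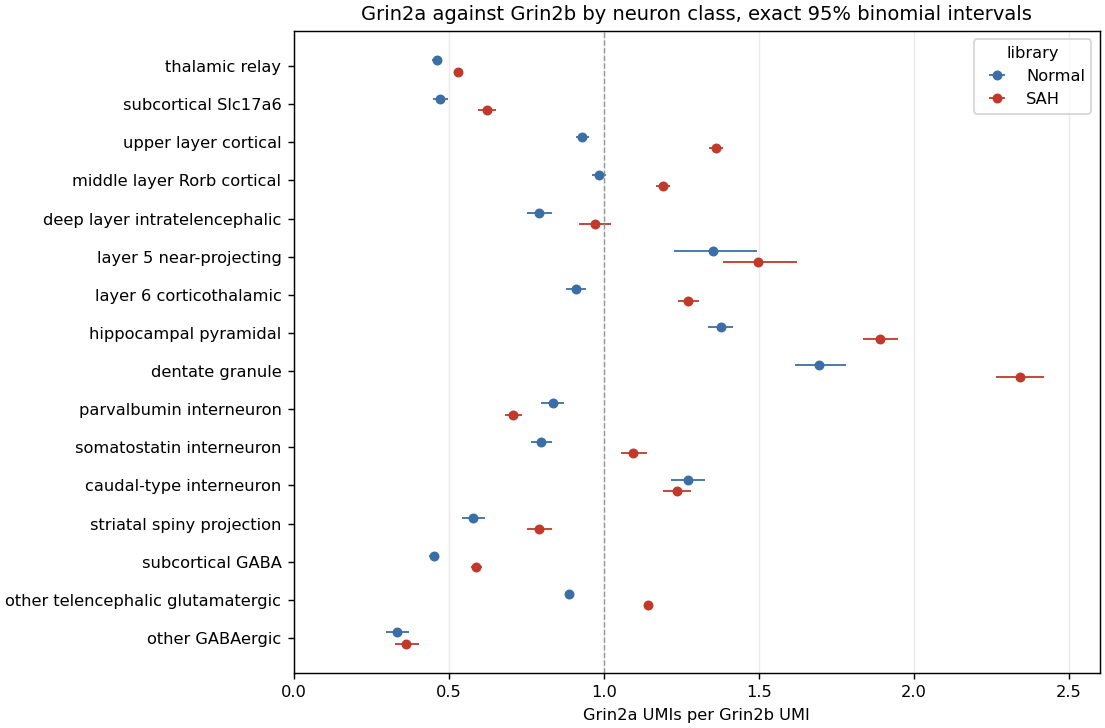
Grin2a UMIs per Grin2b UMI in each neuron class, Normal in blue and SAH in red, with exact 95% binomial intervals; the dashed line marks equal counts. The red point lies to the right of the blue one in 14 classes and to the left in the parvalbumin and caudal-type interneuron classes.

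Grin2c encodes GluN2C, known from cerebellar granule cells and found in thalamus. It lies at chr11:115249169-115267243 on the minus strand (18.1 kb). Only thalamic relay-like nuclei had at least 100 UMIs, 267 in Normal and 478 in SAH. The level was 42.4 CPM (37.5 to 47.8) in Normal and 38.8 (35.4 to 42.4) in SAH, a log2 ratio of −0.13 (−0.35 to 0.09). The share of these nuclei with a UMI was 34.6% and 33.9%, and 4.17% and 3.37% after thinning each nucleus to 1000 UMIs. The residual GABAergic class held 31.1 and 29.5 CPM on 42 and 38 UMIs. In the other 14 neuron classes the level did not exceed 2.44 CPM in either library, beside 0.810 and 0.838 in oligodendrocyte-like nuclei. No UMI was found in hippocampal pyramidal-like or caudal-type interneuron-like nuclei of either library. In the former, 3 UMIs over the 220 Normal nuclei would be a share of 1.36%, a limit on nuclei with a UMI and not on nuclei that express the gene.

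Grin2d encodes GluN2D, a subunit of interneurons and subcortical neurons with slow kinetics. It lies at chr7:45831883-45878378 on the minus strand (46.5 kb), where Kdelr1 overlaps it on the opposite strand. In Normal the 7 classes of GABAergic interneurons, thalamic and subcortical neurons were at 36.5 to 56 CPM, and the 9 telencephalic excitatory and striatal classes at 1.79 to 7.63. The highest class was caudal-type interneuron-like nuclei in Normal and thalamic relay-like nuclei in SAH, where these 2 classes stood at 34 and 34.2 CPM with overlapping intervals.

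Grin2d was below 0 in 6 of the 9 classes compared. Centred on genes of like length, or on the median of all genes, 5 were below and 4 above. Over the alternative settings the thalamic relay-like value ranged from −0.51 to −0.20 and the subcortical GABA value from −0.57 to −0.28. Caudal-type interneuron-like nuclei held 152 and 129 UMIs, or 56 and 34 CPM, a log2 ratio of −0.72 (−1.07 to −0.37), in a class where 13.7% of all genes were lower by at least 1.5-fold. Somatostatin interneuron-like nuclei held 39.3 and 27 CPM (−0.54, −0.92 to −0.16), subcortical GABA nuclei 38 and 27.4 (−0.47, −0.68 to −0.26), and thalamic relay-like nuclei 46.4 and 34.2 (−0.44, −0.66 to −0.22). Parvalbumin interneuron-like nuclei held 36.5 and 32.6, an interval that included 0. The caudal-type value stayed past 1.5-fold under 5 of 8 alternative settings and ranged from −0.76 to −0.55.

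Grin3a encodes GluN3A, abundant in the young brain and retained in some adult neurons. It lies at chr4:49661611-49845744 on the minus strand (184 kb), and Ppp3r2 and Gm12459 overlap it on the same strand, so reads of these genes could be confused. It was the most class-bound member with counts in every class, from 7.90 CPM in layer 6 corticothalamic-like nuclei to 1003 in somatostatin interneuron-like nuclei in Normal, or 127-fold. A UMI was found in 93.2% of somatostatin interneuron-like nuclei in Normal and 93.4% in SAH, and in 3.49% and 3.64% of oligodendrocyte-like nuclei.

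In somatostatin interneuron-like nuclei Grin3a was 1003 CPM in Normal and 1251 in SAH, a log2 ratio of 0.32 (0.26 to 0.38), in the class whose caudal-type markers differed as given above. Striatal spiny projection-like nuclei held 63.5 and 35.9 CPM on 105 and 75 UMIs, a log2 ratio of −0.82 (−1.27 to −0.38), in a class where 13.6% of genes were that far down. Subcortical GABA nuclei, a sum over unlike clusters, held 254 and 216 (−0.23, −0.31 to −0.16). Over the alternative settings this value ranged from −0.30 to −0.05. Middle layer Rorb cortical-like nuclei held 20.6 and 27.8 (0.43, 0.16 to 0.70), a value that ranged from 0.26 to 1.19 over the alternative settings and passed 2-fold with the plain neighbour graph (1.14) and the stricter filter of nuclei (1.19). The striatal value reached −1.09 with every nucleus weighted equally. Parvalbumin interneuron-like nuclei held 36.8 and 49.3 (0.42, 0.09 to 0.75). The ratios were below 0 in 9 classes and above 0 in 7. Centred on genes of like length, 10 were below and 6 above, and centred on the median of all genes 8 and 8.

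Oligodendrocyte precursor-like nuclei numbered 37 in Normal and 42 in SAH, with medians of 3566 and 4117.5 UMIs. The summed level of their 8 markers was 9896 CPM in Normal and 15582 in SAH. The oligodendrocyte markers summed to 2576 and 380, and the 5 markers of any neuron to 5610 and 2985, and the part of this in the values below was not tested. Only Gria2, Gria3, Gria4 and Grin3a had at least 100 UMIs, and none passed 1.5-fold, where 16.6% of the 597 genes compared were lower and 16.4% higher.

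Gria2 was 2339 CPM (2135 to 2557) in Normal and 2071 (1864 to 2295) in SAH in these precursors, and all 37 and all 42 nuclei held a UMI of it. Gria4 was 1266 (1117 to 1429) and 1725 (1537 to 1930), a log2 ratio of 0.45 (0.20 to 0.69). Gria3 was 686 and 653, and Grin3a 517 (424 to 625) and 528 (426 to 647). Each of these 4 lay above its level in oligodendrocyte-like and microglia-like nuclei, where Grin3a, for example, was 17.5 and 22.9 CPM in Normal. Per kilobase, Gria2 took 75.3% of the AMPA subunits in Normal and 69% in SAH, and Gria1 1.95% and 3.02%.

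The other members were sparse in precursors. Grin2b gave 65 UMIs in Normal and 16 in SAH, or 314 CPM (242 to 400) and 90.8 (51.9 to 147). Of the Normal UMIs, 76.9% lay in 3 nuclei, and the SAH interval covered the level of oligodendrocyte-like nuclei, 103 CPM. Grin2a gave 50 and 26 UMIs, 80% of those in Normal in 3 nuclei. Grin1 gave 17 and 6 UMIs, found in 8 of 37 and 4 of 42 nuclei. When nuclei were gated one by one, 62 and 87 precursors were found, Gria1 was 884 and 1123 CPM in them and Grin2b 958 and 769, so these levels depend on how precursors are drawn. Gria4 was above 0 under that gating too, at 0.28 (0.13 to 0.42).

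**Figure D4:**
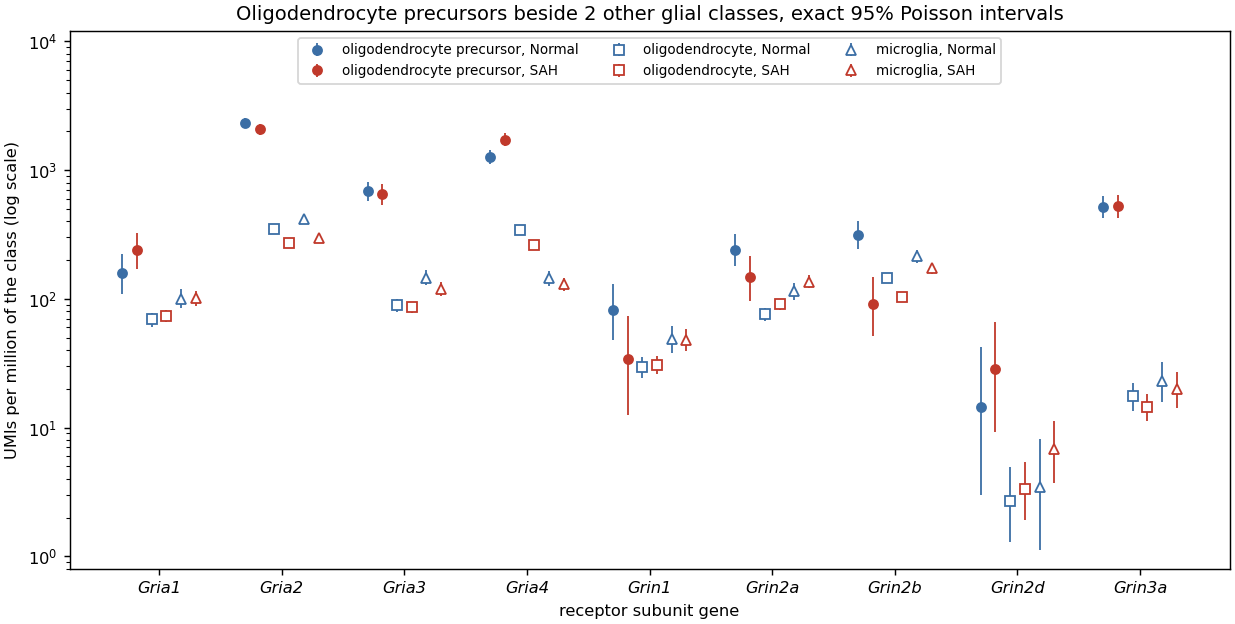
Levels of 9 members in oligodendrocyte precursor-like nuclei (filled circles) beside oligodendrocyte-like (open squares) and microglia-like nuclei (open triangles), in CPM on a log axis with exact 95% Poisson intervals; Normal in blue, SAH in red. Gria2, Gria3, Gria4 and Grin3a lie above both other glial classes, while the intervals of Grin1 and Grin2b in SAH precursors overlap those of other glia.

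Genes around these receptors were described over the 14 named neuron classes, where 15.5% of all gene values were lower by at least 1.5-fold and 7.28% higher. These shares are not centred. The list counts relative to genes of like length have no share of all genes beside them and cannot be set against these. Of 8 other ionotropic glutamate receptor genes, 10 of 93 values were lower and 6 higher, or 7 and 5 relative to genes of like length. Grik5, a kainate receptor subunit, made up 9 of the lower ones, with 118 and 61.2 CPM in upper layer cortical-like nuclei (log2 ratio −0.95, −1.09 to −0.80). Grik1 was 45.4 and 111 CPM in the middle layer Rorb class (1.30, 1.13 to 1.46) but 63.5 and 25.3 in striatal spiny projection-like nuclei (−1.32, −1.83 to −0.83). Of 7 metabotropic receptor genes, 5 of 81 values were lower and 7 higher (5 and 3 relative to genes of like length), among them Grm3 in somatostatin interneuron-like nuclei, 117 and 209 CPM (0.84, 0.67 to 1.02).

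Of 14 genes for AMPA receptor auxiliary proteins, 41 of 154 values were lower, or 26.6%, and 8 were higher. Centred on genes of like length, 23 were lower, or 14.9%, a share with no like-centred share of all genes beside it. Prrt1, an AMPA receptor-associated membrane protein, was lower by at least 1.5-fold in 12 classes, with 29.9 and 11.9 CPM in thalamic relay-like nuclei (−1.32, −1.65 to −1.01). Cnih2, a cornichon chaperone of these receptors, was 38.3 and 12.5 in hippocampal pyramidal-like nuclei (−1.62, −2.23 to −1.05), and Cacng8, a transmembrane regulatory protein, 49.6 and 27 in upper layer cortical-like nuclei (−0.88, −1.09 to −0.66). Shisa6, an auxiliary protein that traps AMPA receptors at synapses, was the other way, at 40 and 85.2 in layer 6 corticothalamic-like nuclei (1.09, 0.83 to 1.36).

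Of 19 postsynaptic scaffold genes, 26 of 249 values were lower, or 10.4%, and 4 higher. Relative to genes of like length, 14 were lower and 2 higher. Homer1, whose short form is induced by activity, was 656 and 319 CPM in layer 6 corticothalamic-like nuclei (−1.04, −1.12 to −0.95), and Dlg4, encoding PSD-95, was 87.9 and 44.3 (−0.99, −1.22 to −0.76) there. Of 3 RNA editing enzyme genes, 1 of 41 values was lower and 4 higher, or 2 and 5 relative to genes of like length. As counted, Adar and Adarb1, which encodes the enzyme that edits the Gria2 transcript, were past 1.5-fold in no named neuron class. In hippocampal pyramidal-like nuclei the median log2 ratio of the 3 genes was 0.583, with Adarb2 above it at 1.21. A value of Adar or Adarb1 there was thus just short of 1.5-fold. Adarb2, a marker of caudal-type interneurons, was past it in 5, among them layer 6 corticothalamic-like nuclei with 66.6 and 178 CPM.

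The genes whose levels were most like those of each member were taken over 17 classes in both libraries, 34 points that share their libraries, by Pearson correlation of log2 CPM. Grin1 and Grin2b were nearest to each other (r = 0.966), followed for Grin1 by Syt1 (0.961). Gria1 was most like Dgkg (0.927), Gria2 like Trerf1 (0.926), Gria3 like Csmd1 (0.917) and Gria4 like Dcx (0.886). Grin2a was most like Kalrn (0.931), Grin2c like Shox2 (0.867), Grin2d like Vwc2 (0.910) and Grin3a like Elfn1 (0.873). Shox2 and Elfn1 are themselves markers that named the thalamic relay-like and somatostatin interneuron-like classes. The 17 classes were not neurons alone. Grin1 was 82.1 and 34 CPM in precursors in Normal and SAH, and at least 262 and 274 in the neuron classes. The part of such gaps between neurons and glia in these r values was not tested.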

How the data were processed

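Single nuclei of 2 libraries, 1 per condition, were prepared by the authors with 10x Genomics 3′ v3.1 chemistry. The authors counted reads with Cell Ranger against mm10, intronic reads included; the submitters' notes give version 5.0.0 and the file header 6.1.2. The deposited files hold UMI counts, not normalized. A nucleus was kept if it held 300 to 7000 genes and fewer than 100000 UMIs, of which mitochondrial genes took under 10% and haemoglobin genes under 3%. Doublets were called with Scrublet, the top 0.8% per 1000 nuclei being dropped: 1178 in Normal, 2644 in SAH.

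Clustering used 2000 features without the members and listed pathway genes, 25 principal components and 10 neighbours per library (scanpy 1.11.5, leidenalg 0.10.2, resolution 4). Naming a cluster needed at least 3 markers, a mean log2 score of 1.5 and no second list over 0.7 of it. The name was withheld where an unrelated list had more markers among the 10 most enriched genes of the cluster. It was also withheld where the cluster was shallow for its library and none of the list's markers were among those genes. Cortical, GABAergic and microglial names needed further markers. The resolution and these rules were set after the clusters, but not the members, had been seen. Mixed subcortical clusters were split nucleus by nucleus on 2 UMIs of a transmitter marker, and precursors were gated within glial clusters. Of 11744 nuclei compared with their one-by-one gate, 81.9% kept their class. Over all kept nuclei, 2176 lay near a gate. The comparison left out the 5385 Normal and 7532 SAH nuclei that the gates did not name, and the residual and subcortical classes. It held unnamed glia, which could not match, so it does not measure the neuron classes alone. The deep layer class held 136 and 120 nuclei as drawn, and 21 and 10 by the gates. Members and lists were chosen with earlier results of these data known, and the 1000 UMI minimum, the Gria1 to Gria2 ratio and the length-centred list counts were added after the data were seen.

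UMIs were summed per class and library. CPM have exact Poisson, log2 ratios exact conditional binomial and shares exact binomial (Clopper-Pearson) intervals, at 95%. Alternatives were one-by-one gates, another neighbour graph, doublets kept, a stricter filter, 2 centrings, equal weight per nucleus, summing within clusters, and other fold and UMI limits. No test was made; a fold of 1.5 on at least 100 UMIs counted as a difference. All 10 members were named, with the genes of each list past the fold, largest first. Of these, only examples are given. PCR duplicates were collapsed by UMI. On simulated data the intervals held the true ratio for 95.6% of 10503 genes in thalamic relay-like nuclei and 93.8% of 597 genes in precursors. The simulated sums were drawn from the Poisson model that the intervals assume. The simulation thus checked the computation only, and held no spread between nuclei, mice or libraries. Gene positions came from GENCODE vM21 (GRCm38). Python 3.11.15, numpy 2.4.6, pandas 2.3.3 and scipy 1.17.1 were used.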

Additional observations from a re-analysis of the deposited data

Results flagged for a closer look

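Some genes were past 1.5-fold in opposite directions in different classes or clusters, and each was picked for that. With 1 library per condition, the difference between the classes was not tested for any of them. Gria1 stood at a log2 ratio of 0.72 in layer 6 corticothalamic-like nuclei and −0.91 in a cluster of the residual GABAergic class led by Six3, which held 44 and 57 nuclei and 93 and 59 UMIs. Grin3a stood at 0.79 in a somatostatin interneuron-like cluster led by Nos1 and Npy, with 29 and 36 nuclei, and at −0.96 in a residual telencephalic cluster led by Ccbe1, with 207 and 202 nuclei.

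Among the genes around the receptors, Grik1 stood at 1.30 in middle layer Rorb cortical-like and −1.32 in striatal spiny projection-like nuclei. Grm8, a metabotropic receptor, stood at 0.66 in upper layer cortical-like and −0.93 in hippocampal pyramidal-like nuclei. Of the AMPA receptor auxiliary proteins, Gsg1l stood at 1.30 in parvalbumin interneuron-like and −0.88 in deep layer intratelencephalic-like nuclei. Shisa7 stood at 0.59 in thalamic relay-like and −0.59 in somatostatin interneuron-like nuclei, and Shisa9 at 0.66 in hippocampal pyramidal-like and −0.86 in somatostatin interneuron-like nuclei. Adarb2 stood at 1.42 in layer 6 corticothalamic-like and −2.14 in somatostatin interneuron-like nuclei. It is itself on the caudal-type marker list, whose other 8 genes summed to 144 CPM in Normal and 95.1 in SAH in the latter class.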

How the results depend on the processing

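The 6 member values past 1.5-fold (2 lower, 4 higher, of 138) were recounted under each alternative. Apart from the 1000 UMI minimum, the recounts have no share of all genes under the same setting beside them. They show how far the count moved, and not how it stood against other genes. With nuclei gated one by one there were 6 lower and 6 higher of 99. The plain neighbour graph gave 1 lower and 4 higher, doublets kept 4 and 4, the stricter filter and equal weighting 3 and 5 each, and summing within clusters 2 and 4. Equal weighting brought Grin2d in somatostatin nuclei to −0.82 and in the residual telencephalic class to 0.60. Centring on the median of all genes gave 1 lower and 7 higher, and centring on genes of like length 1 lower and 1 higher. A limit midway between 1-fold and 1.5-fold gave 11 lower and 16 higher, and a limit of 2-fold gave 0 and 0. A minimum of 50 UMIs gave 3 lower and 4 higher, one of 200 UMIs 1 and 4, and one of 1000 UMIs, added after the data were seen, 0 and 3. Gria1 in layer 5 near-projecting nuclei reversed to −0.72 when nuclei were gated one by one; the cause was not tested. No other called value changed sign. Centring moved 96 (all genes) and 87 (like length) of 138 log2 ratios beyond their counting intervals, and Mantel-Haenszel summing within clusters moved 13. Grin2a per Grin2b was higher in SAH in 14 of 16 classes with doublets kept and in 11 of 12 when gated. No paired analysis was possible because each condition had 1 library, and for the same reason no library could be left out.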

Other observations

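Clusters of the residual telencephalic class, which did not meet the rules for a name, differed in Gria1. A cluster led by Rorb and Adam33 held 390 CPM in Normal and 634 in SAH, a log2 ratio of 0.70, on 498 and 751 nuclei. A cluster led by Tshz2 and Itprid1 held 455 and 272, a log2 ratio of −0.75, on 136 and 293 nuclei. Grin2a in the same clusters stood at 0.20 and −0.27. The difference between the clusters was not tested, and both were chosen after their values were seen.

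Within the caudal-type interneuron class, one cluster of 195 and 268 nuclei held Grin2a at 2393 and 2288 CPM, while the other, of 145 and 182 nuclei, held 368 and 587, a log2 ratio of 0.67. The class value of −0.02 is thus a sum over clusters with unlike levels and unlike ratios.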
